A study of Mus musculus with 27 samples.

Results

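The Cyp1 family of the mouse comprises 3 cytochrome P450 genes, Cyp1a1, Cyp1a2 and Cyp1b1, and all 3 were found by symbol among the 46078 gene rows counted in colonic epithelium. Male C57BL/6 mice were gavaged every 4 days with the dioxin 2,3,7,8-tetrachlorodibenzo-p-dioxin, or TCDD, in sesame oil, or with sesame oil alone as vehicle, and received 7 gavages over 28 days. They were 28 days old at the start and 56 days old at the end. The 8 doses were 0.01 and 0.03, then 0.1 and 0.3, then 1 and 3, and finally 10 and 30 μg/kg, with 3 mice in each of the 9 groups and 27 mice in all. RNA came from scrapings of the colonic surface, so that cells beneath the epithelium may be included, and each library is 1 mouse. Gene counts ran from 9305441 to 14371035 per mouse, with a median of 11651026.

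TCDD is a ligand of the aryl hydrocarbon receptor (AhR), a transcription factor that acts together with its partner ARNT at dioxin response elements near its target genes. The Cyp1 genes are its best known targets and serve as markers of AhR activation. Their products are heme-containing monooxygenases of the endoplasmic reticulum that oxidize polycyclic aromatic hydrocarbons, estrogens and other planar compounds. CYP1A1 is inducible in many epithelia including the gut, CYP1A2 is mainly a liver enzyme, and CYP1B1 is expressed mostly outside the liver.

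Cyp1a1 (ENSMUSG00000032315) lies on the plus strand of chromosome 9 from 57687928 to 57703824 and holds 2787 exonic bases. Cyp1a2 (ENSMUSG00000032310) lies beside it on the minus strand, from 57676937 to 57683703, with 2013 exonic bases. Their RefSeq start sites are 13958 bases apart and point away from each other. Cyp1b1 (ENSMUSG00000024087) is found on chromosome 17, minus strand, from 79701537 to 79715061, with 5840 exonic bases. Coordinates are those of GENCODE M21 on GRCm38, and no other annotated gene overlaps any of the 3.

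The 250 bases before each RefSeq start site (GRCm38.p6) are shown because AhR acts on these genes through DNA, and written 5′ to 3′ on the strand of the gene. The capitals GCGTG mark a match to the letters of the core of a dioxin response element. The match was not scored, and binding of AhR there was not tested. On the other strand the same letters read CACGC. The capitals TATAAA mark the letters of a TATA box.
Cyp1a1, chr9:57697363-57697612, plus strand: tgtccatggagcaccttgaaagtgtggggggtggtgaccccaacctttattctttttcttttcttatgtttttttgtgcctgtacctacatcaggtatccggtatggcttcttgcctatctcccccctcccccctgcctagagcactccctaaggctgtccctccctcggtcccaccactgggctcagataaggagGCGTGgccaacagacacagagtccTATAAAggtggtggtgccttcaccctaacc
Cyp1a2, chr9:57683656-57683905, minus strand: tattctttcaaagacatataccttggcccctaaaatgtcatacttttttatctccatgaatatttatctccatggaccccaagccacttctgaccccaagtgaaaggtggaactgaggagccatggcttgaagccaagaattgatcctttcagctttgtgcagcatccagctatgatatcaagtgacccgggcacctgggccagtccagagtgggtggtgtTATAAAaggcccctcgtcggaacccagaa
Cyp1b1, chr17:79715062-79715311, minus strand: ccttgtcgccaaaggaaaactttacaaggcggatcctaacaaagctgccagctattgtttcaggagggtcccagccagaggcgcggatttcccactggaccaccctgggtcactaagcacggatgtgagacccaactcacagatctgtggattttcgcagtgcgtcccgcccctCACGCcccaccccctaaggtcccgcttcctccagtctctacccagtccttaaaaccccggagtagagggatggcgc
Cyp1a1 held 1 match to the core, at 54 to 50 bases before its start, and TATAAA at 30 to 25 bases before it. Cyp1a2 held no match to the core in these bases, and TATAAA at 29 to 24 bases. Cyp1b1 held 1 match on the other strand, at 76 to 72 bases, and no TATAAA, and its window had 12 CpG sites against 3 in each of the others. Searched on both strands, GCGTG was found in 28.2% and TATAAA in 13.0% of 27025 promoter windows of this length, so a single match is common. Enhancers further upstream lie outside these windows.

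Cyp1a1, the main inducible enzyme of the family, went from almost no reads in vehicle-treated mice to one of the highest levels in the tissue. Its counts were 1, 0 and 1 in the 3 vehicle-treated mice and at most 2 in any mouse up to 0.1 μg/kg TCDD. At 0.3 μg/kg the counts were 5, 6 and 7. They were 74, 66 and 39 in the mice given 1 μg/kg and 550, 1630 and 760 in those given 3 μg/kg. At 10 μg/kg they were 15749, 10468 and 14340. In the highest group, 30 μg/kg, they were 29287, 29023 and 23969. From 0.3 μg/kg upward every mouse was above every mouse of the next lower dose, so that no adjacent pair of groups overlapped. For each pair the exact permutation test gave p = 0.1, two-sided, the smallest that 3 against 3 mice allow. Higher values without overlap were found for 4.67% of all genes from 0.1 to 0.3 μg/kg, 5.87% from 0.3 to 1, 7.21% from 1 to 3, 4.49% from 3 to 10 and 4.5% from 10 to 30.

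Expressed as CPM, counts scaled to a common library size, Cyp1a1 was 0.0654 ± 0.0567 (SD, n = 3) in vehicle-treated mice and 0.473 ± 0.0503 at 0.3 μg/kg. It reached 5.68 ± 1.73, 83.0 ± 49.2, 1102 ± 225 and 2197 ± 198 CPM with 1, 3, 10 and 30 μg/kg (n = 3 each). Of these 4 doses the widest relative spread was at 3 μg/kg, where 1 mouse had 139.6 CPM and the others 50.5 and 58.9. On a scale of CPM per kilobase of exon, Cyp1a1 ranked 58 and 37 with 10 and 30 μg/kg among the 16411 genes that passed the filter on low counts and had an exon length. No rank is given for the low groups, since the filter removed most genes of low level.

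Cyp1b1, the form found mostly outside the liver, had at most 11 reads in any mouse up to 1 μg/kg. In the highest group it reached 43.1 CPM per kilobase of exon, where Cyp1a1 reached 788. Its counts were 2, 1 and 1 in vehicle-treated mice and ran from 0 to 4 in the mice given 0.01 to 0.1 μg/kg. At 0.3 μg/kg they were 2, 11 and 1, and at 1 μg/kg 8, 4 and 8. They were 19, 25 and 26 at 3 μg/kg. Then they reached 1528, 1238 and 1460 in the mice given 10 μg/kg and 3422, 3425 and 2597 in those given 30 μg/kg. The groups up to 0.3 μg/kg overlapped with vehicle, and from 3 μg/kg upward no adjacent groups overlapped. The 1 μg/kg group lay above vehicle, as for 8.8% of all genes, but overlapped with 0.3 μg/kg, through 1 mouse with 11 counts.

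In CPM, Cyp1b1 was 0.133 ± 0.0549 in vehicle-treated mice, and 0.376 ± 0.445 and 0.623 ± 0.175 with 0.3 and 1 μg/kg (SD, n = 3). With 3, 10 and 30 μg/kg it was 1.97 ± 0.203, 115 ± 13.3 and 252 ± 31.7. Per kilobase of exon it ranked 2263 and 907 with 10 and 30 μg/kg among the same 16411 genes.

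Cyp1a2, the liver form, stayed near the limit of detection. It had 0 counts in all 21 mice given vehicle or up to 3 μg/kg, then 5, 3 and 2 counts in the mice given 10 μg/kg and 7, 5 and 3 in those given 30 μg/kg. Both groups lay above vehicle without overlap, which held for 12.1% and 14.5% of all tested genes, with p = 0.1 in the exact permutation test (3 against 3, two-sided), and they overlapped with each other. The summed and scaled counts in the 10 and 30 μg/kg groups were at least 2.70-fold and 3.98-fold higher than a floor of 3 counts over the vehicle group. Between 10 and 30 μg/kg the ratio was 1.47, with a 95% counting interval of 0.619 to 3.67. The gene did not pass the filter on low counts and was therefore not tested with the others. In a fit without that filter its adjusted p was 0.187 at 10 μg/kg and 0.0508 at 30 μg/kg (edgeR's quasi-likelihood test).

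**Figure D1:**
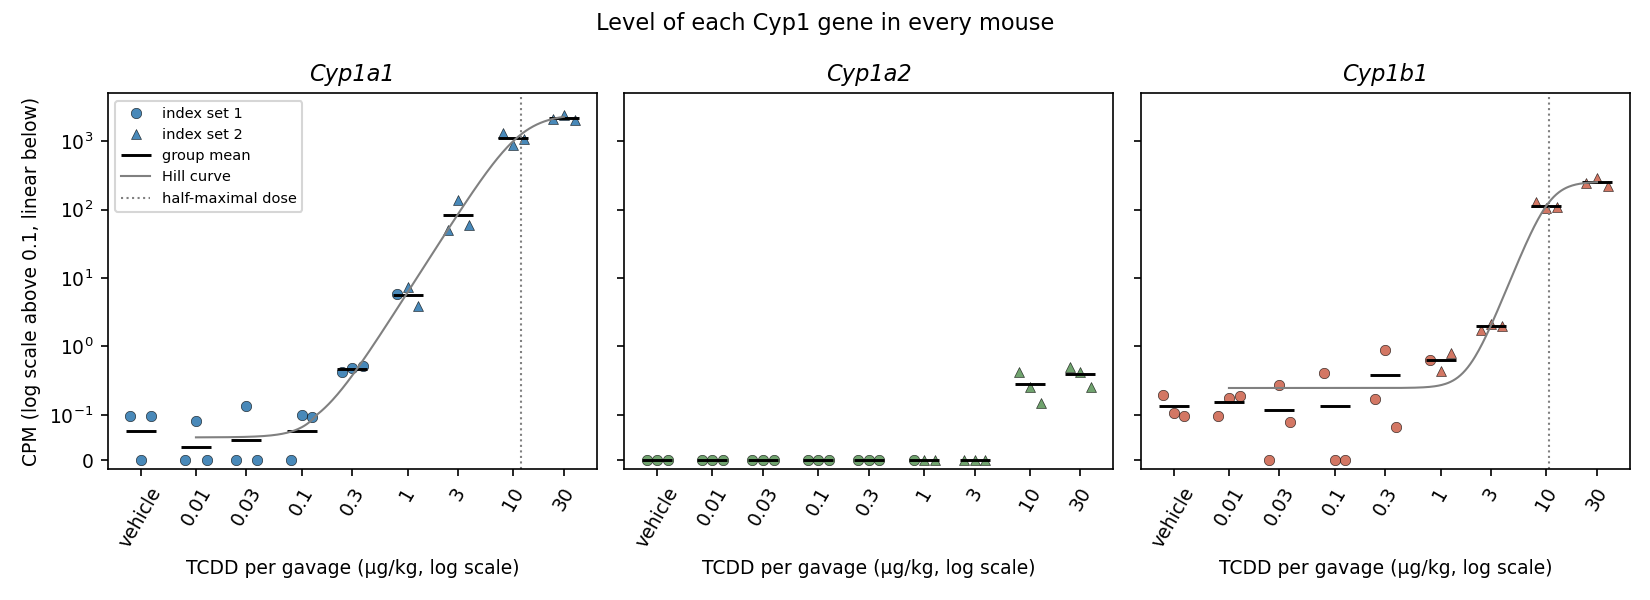
Level of each Cyp1 gene in CPM (vertical axis, log scale above 0.1 and linear below) against the TCDD dose per gavage in μg/kg (horizontal axis, log scale, with vehicle at the left). Each point is 1 mouse, circles and triangles are the first and second index set, short bars are means of 3 mice, the grey curve is the fitted Hill curve and the dotted line its half-maximal dose. Cyp1a1 left the vehicle range from 0.3 μg/kg and reached 2197 CPM, Cyp1b1 had means of 1.97, 115 and 252 CPM at the 3 highest doses, and Cyp1a2 was above 0 only in the mice at 10 and 30 μg/kg.

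Cyp1a1 and Cyp1a2 are close relatives, and part of their transcripts is identical. Of the 50-base words in the annotated transcripts, 94 of 2737 in Cyp1a1 and 94 of 1963 in Cyp1a2 were found in both genes, and the longest shared run was 137 bases. Cyp1b1 shared none with either. Reads with more than 1 alignment were not counted to a gene. The entry for such alignments made up 30.7 to 37.1% of each mouse's table, which need not be the share of reads. Cyp1a2 made up 0.0247% of the reads of both genes at 10 μg/kg (95% exact binomial interval 0.0118 to 0.0453%) and 0.0182% at 30 μg/kg (0.0102 to 0.0301%). At 3 μg/kg it had 0 of 2940 reads, which at a limit of 3 counts allows a share of up to 0.102% (exact binomial upper bound 0.125%). Whether any of the Cyp1a2 reads came from Cyp1a1 transcripts was not tested. These intervals cover counting error only.

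Doses were then tested against vehicle with edgeR's quasi-likelihood method, the p-values of 16496 genes being adjusted together (Benjamini-Hochberg). A gene is called here when its adjusted p is below 0.05 and its level differs at least 1.5-fold. At 30 and at 10 μg/kg both tested members were called higher, beside 2.95% and 0.812% of all genes called higher. At 3 μg/kg both were called as well, against 0.303% of genes. At 1 μg/kg, where 0.139% of genes were called higher, Cyp1a1 was called and Cyp1b1 was not. In the 14 comparisons of the 2 genes up to 0.3 μg/kg, with vehicle or with the next lower dose, 0 were called by edgeR and 0 had an unadjusted p under 0.05. The smallest p among them was 0.0629 and the smallest adjusted p 0.937. Without the filter on low counts the unadjusted p of Cyp1a1 at 0.3 μg/kg was 0.0176 against vehicle and 0.0164 against 0.1 μg/kg in edgeR, and in DESeq2 it was 0.0131 and 0.0121. Neither setting called any of the 14, with adjusted p-values of 0.981 to 1 for these.

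The lowest dose at which Cyp1a1 passed the test was thus 1 μg/kg, where its log2 fold change over vehicle was 6.19 (SE 0.81, adjusted p = 0.00147). Of all 16496 genes it had the smallest p in this edgeR fit at that dose, and again at 3, 10 and 30 μg/kg. As ratios of summed, depth-scaled counts, its folds over vehicle were 7.10 at 0.3 μg/kg (95% counting interval 1.70 to 63.1), 84.2 at 1 μg/kg (23.0 to 701) and 1238 at 3 μg/kg (342 to 10226). At 30 μg/kg the fold was 32766, with an interval of 9070 to 270560, which is wide because the vehicle-treated mice had 2 reads in all. The adjusted p was 1.01e-10, 2.24e-14 and 2.75e-15 with 3, 10 and 30 μg/kg (edgeR). Without the mouse with 1630 counts the value at 3 μg/kg was 9.46 on the log2 scale in place of 10.06, and it remained called.

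For Cyp1b1 the lowest dose that passed was 3 μg/kg, with a log2 fold change of 3.78 (SE 0.63, adjusted p = 0.00268). It ranked 24 by p at 3 μg/kg, 704 at 1 μg/kg, and 2, next to Cyp1a1, at 10 and 30 μg/kg. The order of these 2 genes depended on the setting. In DESeq2 Cyp1b1 had a smaller p than Cyp1a1 at 10 and 30 μg/kg, and with RLE size factors in edgeR at 30 μg/kg. At 1 μg/kg its log2 fold change was 2.15 (SE 0.81, unadjusted p = 0.0146, adjusted p = 0.343). The count ratios over vehicle were 4.71 at 1 μg/kg (95% counting interval 1.58 to 18.9), 14.7 at 3 μg/kg (5.51 to 55.6), 856 at 10 μg/kg (334 to 3145) and 1880 at 30 μg/kg (734 to 6903). The adjusted p was 4.51e-14 at 10 μg/kg and 2.75e-15 at 30 μg/kg.

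The index barcodes named with the count tables were used 2 times over. The first use covers 16 mice (all groups up to 0.3 μg/kg, plus 1 mouse of the 1 μg/kg group) and the second the other 11. Comparisons of 3, 10 and 30 μg/kg with vehicle therefore lie wholly across the sets, while those among 3, 10 and 30 μg/kg lie within the second. At 1 μg/kg the Cyp1a1 level was 5.85 CPM in the mouse of the first set and 7.32 and 3.87 CPM in those of the second, so that the sets overlapped. Within the second set the log2 fold change from 3 to 30 μg/kg was 4.73 for Cyp1a1 (SE 0.28, adjusted p = 1.05e-10) and 6.99 for Cyp1b1 (SE 0.28, adjusted p = 4.49e-14), where 0.218% of genes were called higher. With the index set as a covariate the adjusted p of Cyp1b1 at 3 μg/kg against vehicle was 0.148. Only the 1 μg/kg group, with 1 mouse in the first set and 2 in the second, separates the set from the dose. All values with this covariate therefore rest on these mice.

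Cyp1a1 rose from 0.3 to 1, from 1 to 3 and from 3 to 10 μg/kg, each time by more than the dose, and the step from 10 to 30 μg/kg was smaller. The doses differ by 3 or 3.33-fold. The ratio of summed counts was 7.23 from 0.1 to 0.3 μg/kg (95% counting interval 1.73 to 64.2, adjusted p = 0.955 in edgeR's test). It was 11.9 from 0.3 to 1 (7.30 to 20.5), 14.7 from 1 to 3 (12.6 to 17.2), 13.3 from 3 to 10 (12.8 to 13.8) and 1.99 from 10 to 30 μg/kg (1.97 to 2.02). These intervals cover counting error only and not the spread between mice. Per log unit of dose, the log of the level differed by 1.80, 2.05, 2.45, 2.15 and 0.628 in these steps, where 1 would be a rise in proportion to dose. In edgeR's quasi-likelihood test Cyp1a1 was called from 0.3 to 1 μg/kg (log2 fold change 3.54, SE 0.53, adjusted p = 0.0117), where it was the 1 gene called of all tested, 0.00606%. It was also called from 1 to 3 (3.87, SE 0.31, adjusted p = 1.19e-07) and from 3 to 10 μg/kg (3.73, SE 0.27, adjusted p = 5.99e-09), where 0.0182% and 0.0303% of genes were called higher. The call from 0.3 to 1 μg/kg was lost with the index set as a covariate (adjusted p = 0.265) and without any of 5 of the 6 mice (0.0682 to 0.185). Without the mouse with 1630 counts the rises into and out of 3 μg/kg were 3.27 and 4.34.

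Cyp1b1 instead had its largest fold from 3 to 10 μg/kg. Its summed counts differed 2.81-fold between 0.1 and 0.3 μg/kg (95% counting interval 0.883 to 11.7), 1.70-fold between 0.3 and 1 (0.819 to 3.65) and 3.13-fold between 1 and 3 μg/kg (1.88 to 5.44), and none of these steps was called by edgeR. DESeq2 called the step from 1 to 3 μg/kg (log2 fold change 1.64, adjusted p = 0.0372). Without the mouse with 11 counts the log2 fold change in edgeR was −0.15 from 0.1 to 0.3 μg/kg, in place of 1.42, and 2.32 from 0.3 to 1 μg/kg, in place of 0.75. Without the mouse that held all 4 reads of the 0.1 μg/kg group the former was 5.15, a value set against 0 reads. From 3 to 10 μg/kg the summed counts rose 58.1-fold (45.9 to 74.7), a log2 fold change of 5.86 (SE 0.27, adjusted p = 1.35e-12, edgeR) and the smallest p of all genes in that step. The exponent for this step was 3.37. From 10 to 30 μg/kg the ratio was 2.20 (2.12 to 2.28).

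With the filter on low counts few genes were called by edgeR between adjacent doses, with Cyp1a1 alone from 0.3 to 1 μg/kg and Cyp1b1 first from 3 to 10 μg/kg. Besides Cyp1a1, those called from 1 to 3 μg/kg were Pcdh17 (log2 fold change −1.50), Ahrr (1.43) and Acta1 (1.36). From 3 to 10 μg/kg they were Cyp1b1, Ahrr (3.48), Cyp1a1, Pcdh17 (−2.86), Acta1 (1.87), Wfikkn2 (1.71), Nid2 (−1.07) and Plxnb1 (−0.60). Pcdh17, Nid2 and Plxnb1 are named after their values were seen. Ahrr encodes the AhR repressor, itself a classical AhR target, and Pcdh17 a protocadherin. Without the filter edgeR called 7 genes from 0.3 to 1 μg/kg, 8 from 1 to 3 and 10 from 3 to 10. DESeq2 called 7, 10 and 14 in these steps.

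Between 10 and 30 μg/kg neither gene was called. The log2 fold change was 1.00 for Cyp1a1 (SE 0.24, unadjusted p = 0.000408, adjusted p = 0.427) and 1.13 for Cyp1b1 (SE 0.20, unadjusted p = 6.86e-06, adjusted p = 0.0566). With all 27 mice and the filter on low counts edgeR called no gene in this step, 0% of those tested, while 990 had an unadjusted p under 0.05. Without the filter edgeR called 4 genes, as did DESeq2, and without mouse 65 of the 30 μg/kg group edgeR called 32. The highest mouse at 10 μg/kg had 1342 CPM of Cyp1a1 and the lowest at 30 μg/kg 2063 CPM, so the groups did not overlap. For Cyp1b1 these values were 130 and 224 CPM. The call for Cyp1b1 depended on the setting, with an adjusted p of 2.09e-11 in DESeq2, 0.00107 without the filter on low counts and 0.157 when only the 2 groups were fitted.

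**Figure D2:**
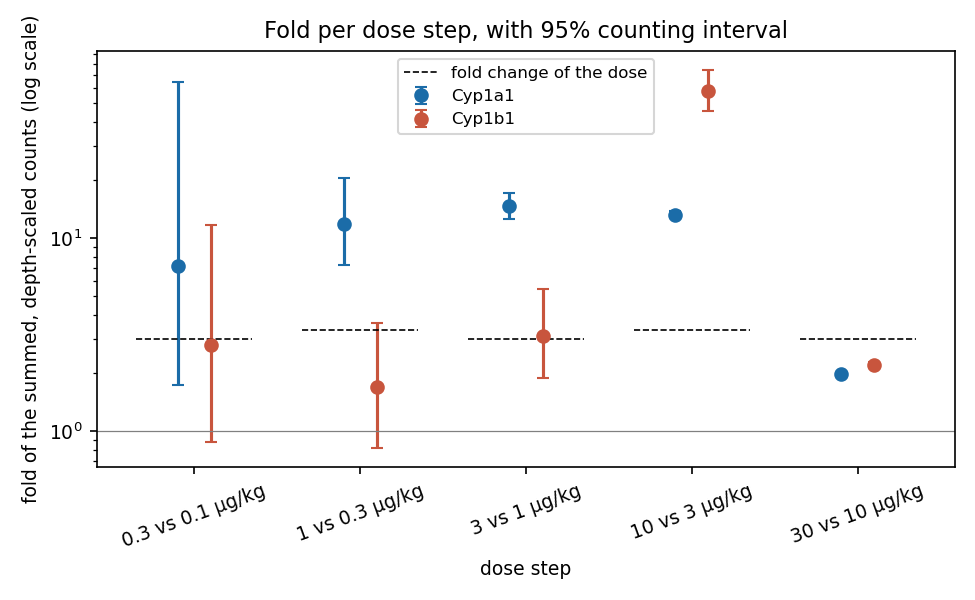
Fold of the summed, depth-scaled counts of 3 mice (vertical axis, log scale) in each dose step in μg/kg (horizontal axis) for Cyp1a1 and Cyp1b1. Points are ratios, bars 95% counting intervals, and dashed lines the fold change of the dose itself. Cyp1a1 lay between 7.23 and 14.7 in the first 4 steps, Cyp1b1 reached 58.1 from 3 to 10 μg/kg, and both were under the dose ratio of 3 from 10 to 30 μg/kg.

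At 10 μg/kg Cyp1a1 stood at 50.2% and Cyp1b1 at 45.6% of their own level at 30 μg/kg. These shares were 3.78% and 0.781% with 3 μg/kg, 0.259% and 0.248% with 1 μg/kg, and 0.0215% and 0.149% with 0.3 μg/kg. By interpolation between the group means, 50% of the level at 30 μg/kg was reached at 9.99 μg/kg for Cyp1a1 and 11.4 μg/kg for Cyp1b1. Leaving out any 1 mouse moved these doses within 9.59 to 11.7 and 10.3 to 12.3 μg/kg.

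A Hill curve with a negative binomial likelihood was fitted to the counts of the 27 mice for each gene. The half-maximal dose was 11.8 μg/kg for Cyp1a1 (95% profile likelihood interval 8.93 to 16.5) and 10.6 μg/kg for Cyp1b1 (9.59 to 11.8), and the intervals overlapped. The slope was 2.44 for Cyp1a1 (2.22 to 2.69) and 3.93 for Cyp1b1 (3.57 to 4.29), and these intervals did not overlap. The fitted plateaus were 2515 and 257 CPM, of which 40.2% and 44.5% were reached with 10 μg/kg, and 90.8% and 98.4% with 30 μg/kg. The plateau rests on the 2 highest doses, since no dose above 30 μg/kg was given.

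The curve followed Cyp1a1 more closely than Cyp1b1 at low doses. For Cyp1a1 the fitted levels were 0.375, 6.18, 86.6, 1012 and 2283 CPM from 0.3 to 30 μg/kg, beside means of 0.473, 5.68, 83.0, 1102 and 2197. For Cyp1b1 the curve gave 0.271 CPM at 1 μg/kg beside a mean of 0.623, and 2.05 CPM at 3 μg/kg beside 1.97. In least squares on the log scale the Cyp1b1 slope was 3.12 and its half-maximal dose 13.2 μg/kg.

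Since both genes are counted in the same library, their ratio does not depend on depth. In the mice given 3 μg/kg there were 28.9, 65.2 and 29.2 Cyp1a1 reads per Cyp1b1 read. At 10 μg/kg the ratios were 10.3, 8.46 and 9.82, and at 30 μg/kg 8.56, 8.47 and 9.23. Every mouse at 3 μg/kg was above every mouse at the higher doses, while the groups at 10 and 30 μg/kg overlapped. On the log2 scale the ratio was 5.25 ± 0.67, 3.25 ± 0.15 and 3.13 ± 0.07 with 3, 10 and 30 μg/kg (SD, n = 3). It was 4.01-fold lower at 10 than at 3 μg/kg and 4.35-fold lower at 30 than at 3 μg/kg (exact permutation test, two-sided, p = 0.1 and adjusted p = 0.15 over 3 comparisons for both, the design allowing no p under 0.1). Between 10 and 30 μg/kg the difference was −0.12 on the log2 scale (exact permutation test, p = 0.4). These 9 mice belong to the second index set.

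At lower doses the reads were too few for a test, and only the ratio of the summed counts is given. It was 8.95 at 1 μg/kg (95% counting interval 5.63 to 15.0), 1.29 at 0.3 μg/kg (0.604 to 2.79) and 0.5 in vehicle-treated mice (0.0452 to 3.49), beside 42 at 3 μg/kg (33.1 to 54.0). The ratio was therefore higher at 3 μg/kg than at the doses on either side of it, and the counting intervals at 1 and 3 μg/kg did not overlap. Single mice given 1 μg/kg had 9.25, 16.5 and 4.88 Cyp1a1 reads per Cyp1b1 read, all below the mice given 3 μg/kg. Per kilobase of exon there were 88.0 times as many Cyp1a1 as Cyp1b1 reads at 3 μg/kg, 20.1 times at 10 μg/kg, and 18.3 times at 30 μg/kg.

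**Figure D3:**
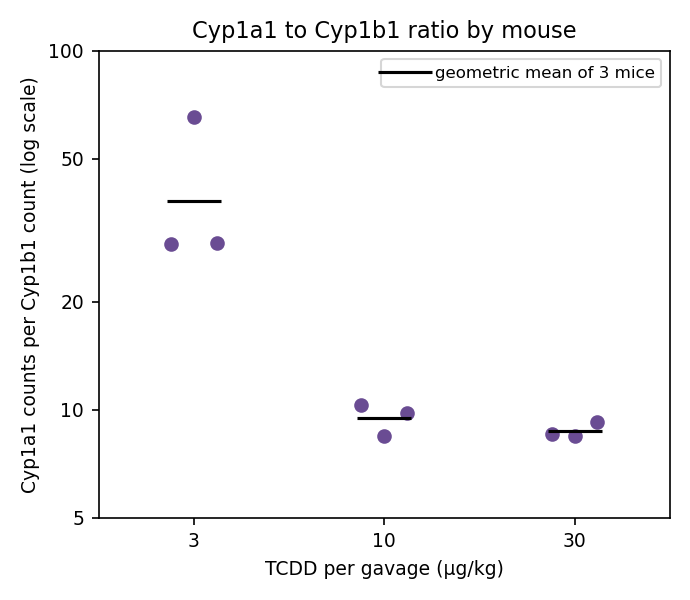
Number of Cyp1a1 counts per Cyp1b1 count (vertical axis, log scale) at 3, 10 and 30 μg/kg TCDD (horizontal axis). Each point is 1 mouse and each bar the geometric mean of 3 mice. The mice at 3 μg/kg lie between 28.9 and 65.2, and all mice at 10 and 30 μg/kg between 8.46 and 10.3.

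In bulk tissue, a change in the share of cells that carry a transcript cannot be told apart from a change in its level per cell. At 30 μg/kg 2.95% of all genes tested were called higher and 3.21% lower, the background for each list of genes below. The epithelial markers Epcam, Cdx2 and Muc2 were high in all groups, and of 8 epithelial markers 0 were called higher and 1 lower at 30 μg/kg, the crypt stem cell gene Lgr5 (log2 fold change −1.40, adjusted p = 6.07e-05, edgeR). Of 8 smooth muscle and stromal markers 0 were called at 30 μg/kg, their median being 1.43 on the log2 scale beside −0.0022 over all genes, and 2 of 4 endothelial and 1 of 4 adipocyte markers were called higher, as were 1 of 4 small intestinal and 0 of 5 leukocyte markers. With the index set as a covariate 4 stromal markers (Myh11, Des, Tagln and Acta2) were called higher, with a median of 3.64 on the log2 scale beside 0.0237 over all genes, and 2 (Tagln and Acta2) were at 10 μg/kg. The covariate is set by the mice of the 1 μg/kg group, whose summed stromal levels were 74.6, 78.0 and 372 CPM. The stromal values with the covariate thus depend on single mice. The endothelial count was again 2 at 30 μg/kg, and no adipocyte or small intestinal marker was called, the medians of these lists being 2.42 and 1.91, beside 2.31 and 0.80 without the covariate. The adipocyte median without the covariate was 2.77 at 0.01 μg/kg, where none was called. It ran from 0.0190 to 1.25 at 0.03 to 10 μg/kg. The summed stromal level was 137 to 161 CPM in vehicle-treated mice, 261 to 354 at 10 μg/kg and 139 to 695 at 30 μg/kg. The mouse with 139 CPM, inside the vehicle range, had the highest levels of Cyp1a1 (2424 CPM) and Cyp1b1 (286 CPM) of all mice. The mouse with 695 CPM had the lowest at that dose, 2063 and 224 CPM.

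Of 5 hepatocyte markers 3 were tested and 1, Cyp2e1, was called higher at 30 μg/kg. The summed level of the list was 5.68 to 8.25 CPM in vehicle-treated mice, 6.16 to 15.6 at 10 μg/kg and 20.8 to 62.1 at 30 μg/kg, and the median of the 3 tested was 1.39 on the log2 scale. None of the 3 was called by edgeR with the index set as a covariate, where their median was 2.76 and Cyp2e1 was 3.19 (SE 1.43), beside 3.72 (SE 0.74) without it. Albumin and Serpina1c were near 0, with 1 to 11 counts of albumin (Alb) in vehicle-treated mice, 2 to 10 at 10 μg/kg and 5 to 17 at 30 μg/kg, and 0 counts of Serpina1c in these 9 mice. At 30 μg/kg the mice with 7, 5 and 3 counts of Cyp1a2 had 17, 5 and 9 counts of Alb, 5, 1 and 2 of Apoa2 and 55, 295 and 612 of Cyp2e1. The mouse with most Cyp1a2 was there highest in Alb and Apoa2 and lowest in Cyp2e1. At 10 μg/kg the mice with 5, 3 and 2 counts of Cyp1a2 had 8, 2 and 10 of Alb. They had 3, 2 and 3 counts of Apoa2 and 55, 37 and 34 of Cyp2e1. At that dose the mouse with most Cyp1a2 was highest in Cyp2e1 and not in Alb. The adipocyte markers summed to 7.97, 20.1 and 91.3 CPM in the 30 μg/kg mice with 55, 295 and 612 counts of Cyp2e1, the same order. At 10 μg/kg they summed to 7.76, 15.05 and 5.29 CPM in the mice with 55, 37 and 34 counts, not the same order. Which cells the Cyp2e1 reads came from was not tested. The part of hepatocyte RNA in the Cyp1a2 counts was not tested either.

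The receptor itself and its partner did not pass the test at any dose. Ahr was at 26.1 ± 2.0 CPM in vehicle-treated mice and 29.2 ± 2.5 CPM at 30 μg/kg (SD, n = 3), with a log2 fold change of 0.16 (SE 0.13, adjusted p = 0.455, edgeR). Arnt was at 64.7 ± 2.9 and 61.7 ± 3.7 CPM, with a log2 fold change of −0.07 (SE 0.07, adjusted p = 0.537). Of the 8 genes of the AhR complex and its regulators, 2 were called higher and 0 lower at 30 μg/kg, with a list median of 0.08, beside 2.95% and 3.21% of all genes tested. The 2 are known for feedback on the receptor.

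Ahrr, the AhR repressor, lay at 1.77 ± 0.35 CPM in vehicle-treated mice and at 5.89 ± 1.48, 65.9 ± 8.65 and 132 ± 19.9 CPM with 3, 10 and 30 μg/kg (SD, n = 3). Its log2 fold change over vehicle was 1.73 at 3 μg/kg, where it was the 1 gene of the list called and 0.303% of all genes were called higher, 5.21 at 10 μg/kg and 6.21 at 30 μg/kg (adjusted p = 0.00253, 1.84e-13 and 4.8e-15). With the index set as a covariate Ahrr was called at 10 and 30 μg/kg and not at 3 μg/kg. Its log2 fold changes were then 5.88 (SE 0.47) and 6.88 (SE 0.48) at 10 and 30 μg/kg, beside SEs of 0.23 without the covariate. Tiparp, a mono-ADP-ribosyltransferase that inhibits AhR, was at 27.3 ± 4.89 CPM in vehicle-treated mice, 24.6 ± 3.05 at 3 μg/kg and 56.0 ± 6.88 at 30 μg/kg. It was called at 30 μg/kg (log2 fold change 1.04, adjusted p = 0.000184) and not at 10 μg/kg (0.48, adjusted p = 0.0948). Tiparp was not called at either dose with the index set as a covariate, with a log2 fold change of 0.36 at 30 μg/kg (adjusted p = 0.417, edgeR) and −0.19 at 10 μg/kg.

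Other genes of the AhR battery encode mainly conjugating and antioxidant enzymes, and those called rose by 0.64 to 1.28 on the log2 scale. Of 12 genes listed 9 were tested, and 5 were called higher and 0 lower at 30 μg/kg, the median being 0.64 on the log2 scale. They were Gsta1 (1.28, SE 0.29), a glutathione transferase, Nqo1 (0.97, SE 0.23), the NAD(P)H quinone oxidoreductase, the glucuronosyltransferases Ugt1a7c (0.81, SE 0.19) and Ugt1a6b (0.71, SE 0.20), and Nfe2l2 (0.64, SE 0.11), the transcription factor NRF2, with adjusted p-values of 0.000937 to 0.0265 (edgeR). The Ugt1a genes share exons, so their separate counts are uncertain. Of this list 0 genes were called at 3 and 10 μg/kg, the doses over which Cyp1b1 rose 58.1-fold. Cyp2a5 had 0 counts in the vehicle group and at 30 μg/kg.

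P450 enzymes need heme and electrons from the reductase encoded by Por. Of 13 genes for electron donors and heme synthesis or breakdown, 2 were called higher and 0 lower at 30 μg/kg, the median being 0.10 on the log2 scale. Por was at 130 ± 4.4 CPM in vehicle-treated mice and 198 ± 44 at 30 μg/kg, a log2 fold change of 0.61 (SE 0.15, adjusted p = 0.0112, edgeR). Alas1, the first enzyme of heme synthesis, went from 104 ± 18 to 187 ± 35 CPM (0.84, SE 0.27, adjusted p = 0.0485). None was called at 10 μg/kg by edgeR, where Cyp1a1 already stood at 1102 CPM.

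Among 9 enzymes that act on the products of CYP1 oxidation, 1 was called higher and 2 lower at 30 μg/kg. Gstp1, a glutathione transferase, rose (0.60, SE 0.18, adjusted p = 0.0392, edgeR). The sulfotransferase Sult1a1 fell by 1.35 on the log2 scale (SE 0.16, adjusted p = 1.07e-05), from 141 to 204 CPM in vehicle-treated mice to 99.5 to 110.0 with 10 μg/kg and 47.5 to 80.9 with 30 μg/kg. The glutathione transferase Gstt1 fell by 0.92 (SE 0.24, adjusted p = 0.0162). With the index set as a covariate each of the 4 lists had 1 gene called at 30 μg/kg, namely Ahrr, Gsta1, Cpox and Sult1a1. Of the genes no longer called, Nqo1 was then at 1.13 on the log2 scale (SE 0.41), Por at 0.74 (SE 0.27), Alas1 at 0.78 (SE 0.49), Gstp1 at 0.65 (SE 0.34) and Gstt1 at −1.07 (SE 0.44), each with a larger SE than without the covariate, while Nfe2l2 was at 0.39 (SE 0.20).

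**Figure D4:**
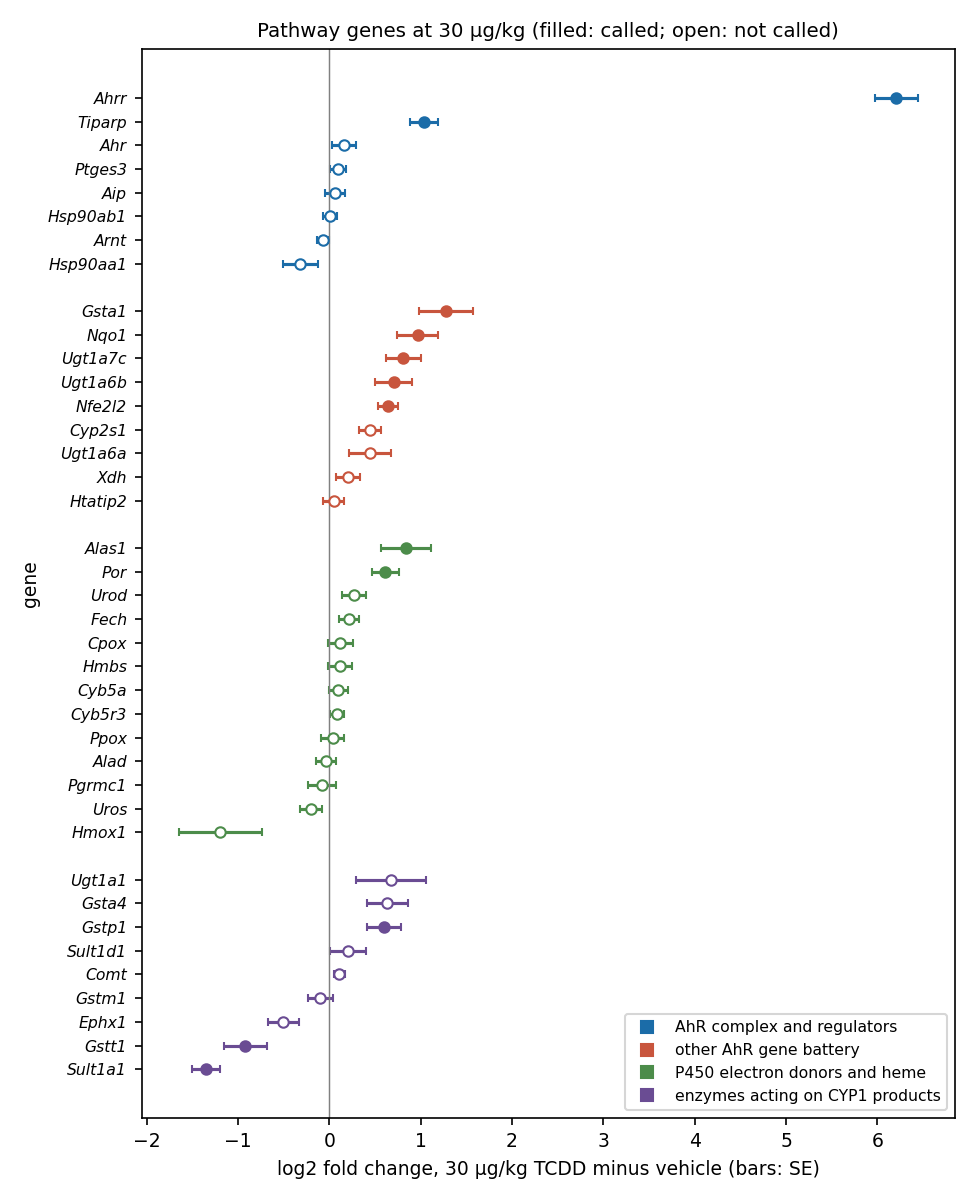
Log2 fold change at 30 μg/kg TCDD over vehicle (horizontal axis, bars are SE from edgeR) for the tested genes of 4 lists (vertical axis), with 3 mice per group. Filled points were called (adjusted p below 0.05, at least 1.5-fold), and open points were not. Ahrr stands at 6.21, while the other called genes lie between −1.35 and 1.28.

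Among 14554 genes with a mean of at least 1 CPM, those whose log2 CPM followed Cyp1a1 and Cyp1b1 most closely over the 27 mice overlapped, 5 of the 6 closest genes of each being shared. With Cyp1a1 the highest Pearson correlations were Acta1 (r = 0.949), Selenbp1 (0.949), Exoc3 (0.947), Arhgap10 (0.942), Wfikkn2 (0.936) and Ahrr (0.930), while Cyp1b1 itself had 0.947. With Cyp1b1 they were Ahrr (0.981), Acta1 (0.968), Exoc3 (0.957), Selenbp1 (0.954), Wfikkn2 (0.940) and Plcg2 (0.933). Within the 11 mice of the second index set Ahrr correlated at 0.980 with Cyp1a1 and 0.994 with Cyp1b1. These values are descriptions, since all mice share the dose series and the 2 index sets follow it.

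The levels of these genes over dose differed in scale from those of the Cyp1 genes. Acta1, skeletal muscle actin, was at 3.83 ± 1.10 CPM in vehicle-treated mice and at 18.2 ± 1.94, 66.7 ± 15.5 and 142 ± 23.4 CPM with 3, 10 and 30 μg/kg (SD, n = 3). Wfikkn2 went from 1.17 ± 0.0115 CPM to 11.4 ± 1.04 at 30 μg/kg and Arhgap10 from 2.00 to 3.14 CPM to 8.77 to 10.9 CPM. Selenbp1, a selenium-binding protein with methanethiol oxidase activity, was at 439 ± 59.5 CPM in vehicle-treated mice, 1022 ± 38.1 at 10 μg/kg and 1137 ± 25.7 at 30 μg/kg. Exoc3, of the exocyst complex, went from 41.3 ± 1.07 CPM to 68.8 ± 1.88 at 10 μg/kg and 70.2 ± 2.41 at 30 μg/kg. Plcg2, a phospholipase C of immune and tuft cells, went from 14.4 ± 2.18 to 25.1 ± 1.58 and 25.5 ± 1.46 CPM.

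**Figure D5:**
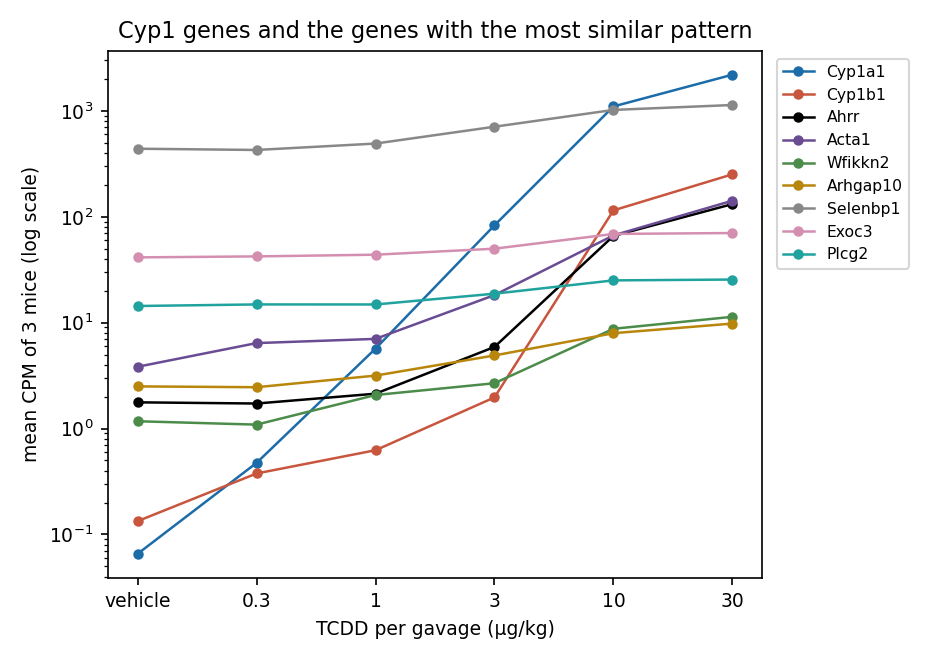
Mean CPM of 3 mice (vertical axis, log scale) by TCDD dose in μg/kg (horizontal axis) for Cyp1a1, Cyp1b1 and the genes with the most similar pattern. Lines join the group means of a gene. Cyp1a1 and Cyp1b1 start below the other genes, and Cyp1a1 passes Ahrr by 1 μg/kg, with 5.68 against 2.13 CPM.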

How the data were processed

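RNA from the colonic epithelium of 27 male mice was sequenced, 3 for each of 9 doses, and grouped by the dose in the labels. The authors deposited raw counts, whole numbers of reads per gene, in a separate table for each mouse. The submitters' processing notes name FastQC 0.11.3, Trimmomatic 0.33, TopHat2 2.1.0, SAMtools 1.2.0, HTSeq 0.6.1 and the build GRCm38, while the annotation release, read length and use of strand are not given in the sources used here. Lines without a gene name did not enter library sizes, and reads assigned to no feature were 29.1 to 33.3% of each table. Counts without molecular identifiers are not independent molecules, so intervals and floors cover counting error only.

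Of 46078 gene rows 45143 matched a symbol. filterByExpr (minimum count 10) left 16496 genes, which were fitted over all groups with TMM factors by edgeR 4.0.16 (R 4.3.3). CPM used TMM library sizes, and correlations log2 CPM with a prior count of 2. SE was derived from the fold change and F. Hill curves, exact tests and intervals used scipy 1.17.1. Ratios were tested where every mouse had at least 10 counts of both genes. The steps were tested on simulated data. A search of a longer stretch of promoter was planned, and only 250 bases from RefSeq were searched. The members, lists and tests were chosen with earlier results of these data known. Named genes were the members, Ahr, Arnt and Por, list genes called at 10 or 30 μg/kg, and the 6 most correlated with each of Cyp1a1 and Cyp1b1. Alternatives were RLE size factors, DESeq2 1.42.0, no filter, only the groups compared, the index set as a covariate, an adjusted p alone, a Hill slope of 1, least squares with a pseudocount of 0.1, total counts as library size, and each mouse left out in turn.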

Additional observations from a re-analysis of the deposited data

How the results depend on the processing

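Of the comparisons of Cyp1a1 and Cyp1b1 with vehicle at 1 to 30 μg/kg, RLE size factors, DESeq2, no filter and fitting only the groups compared changed no call where the gene was fitted (Cyp1b1 at 1 μg/kg gave no value with only the groups compared). With the index set as a covariate, Cyp1b1 at 3 μg/kg was 3.79 on the log2 scale and Cyp1a1 from 0.3 to 1 μg/kg 3.59, neither called. The latter ran from 3.34 to 3.75 without 1 mouse. Called in addition were Cyp1b1 from 1 to 3 μg/kg in DESeq2 (1.64, adjusted p = 0.0372) and from 10 to 30 μg/kg without the filter (1.13), in DESeq2 (1.13) and without mouse 65 (adjusted p = 0.0318, range 1.03 to 1.22). Cyp1b1 at 0.3 μg/kg against vehicle ran from −0.17 to 1.92, and reversed without the mouse with 11 counts. With a slope of 1 the half-maximal dose reached the highest value searched, 300 μg/kg, for both genes. Least squares gave Cyp1b1 13.2 μg/kg and a slope of 3.12. The causes were not tested.

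Genes called numbered 33, 115, 294 and 1016 at 1, 3, 10 and 30 μg/kg. They were 12, 2, 57 and 731 with the index set, 59 and 180 at 1 and 3 μg/kg without the filter, 73 and 197 in DESeq2, and 230 at 3 and 662 at 30 μg/kg with only the groups compared. Without 1 mouse they ran from 3 to 24, 48 to 97, 163 to 228 and 590 to 1084. The 4 pathway lists had 1 gene each called at 30 μg/kg with the index set, the stromal markers 4 in place of 0 (median 3.64 in place of 1.43), the adipocyte, hepatocyte and small intestinal markers 0 in place of 1 each (medians 2.42, 2.76 and 1.91 in place of 2.31, 1.39 and 0.80), and Ahrr at 3 μg/kg was not called. The effect of the index set was estimated from the 1 μg/kg group alone. No paired analysis was possible because the mouse numbers differ between all groups. Depth limits Cyp1a2 and all values up to 0.3 μg/kg, where 1 read is a large part of the level.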
